A study of Mus musculus with 6 samples.

Results

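The genes described here are 10 genes of the liver sinusoidal endothelium and of the vascular endothelial growth factor (VEGF) and angiopoietin system: the ligand genes Vegfa, Angpt1 and Angpt2, the receptor genes Kdr, Flt1, Flt4, Tek and Tie1, and the endothelial surface genes Stab2 and Lyve1. They were chosen by name, with earlier results of these data known, and all 10 were measured, among 17097 genes on the array. Remnant liver was taken from C57Bl/6 mice 12 h after a partial hepatectomy, surgery that removes 70% of the liver and sets off its regrowth. One group of 3 mice was wildtype, and the other group of 3 mice is labelled DeltaKlf6, a knockout of the zinc-finger transcription factor gene Klf6 in hepatocytes. Each array holds total RNA of the whole remnant liver of 1 animal. The overall study used 6 animals per group. The sources used here do not give the promoter that drives the deletion, the age of the mice or the alleles of the wildtype controls. Both groups were operated, and no unoperated liver is part of the series, so levels before surgery were not analysed here.

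The sinusoids of the liver are lined by a fenestrated endothelium that takes up macromolecules from the blood with scavenger receptors. VEGF-A, which hepatocytes are known to make, signals to these cells through the receptor tyrosine kinase VEGFR2, encoded by Kdr, while VEGFR1, encoded by Flt1, binds the same ligand tightly and can act as a decoy. Angiopoietin 1 activates the receptor TIE2, encoded by Tek, angiopoietin 2 modulates or blocks it, and TIE1 is a related receptor without a firmly known ligand of its own. In the regenerating liver, endothelial cells are known to send growth signals to hepatocytes early and to divide after them.

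Kdr was the member that differed most between the groups. Its level was 6.55 ± 0.07 in wildtype and 5.69 ± 0.55 in DeltaKlf6 (log2 expression, mean ± SD, n = 3 each), and all 3 DeltaKlf6 arrays lay below all 3 wildtype arrays. Tek and Stab2 were also lower by group mean, by 0.49 and 0.61 on the log2 scale, with overlapping groups. Lyve1 stood out in a single array, that of the library labelled DeltaKlf6 1, at 8.34 against 6.35 to 7.16 in wildtype. By limma with Benjamini-Hochberg adjustment over all genes, 0 of the 10 members passed an adjusted p of 0.05 (background 0% of all genes). At an unadjusted p under 0.05 there was 1 of the 10, Kdr, beside 3.69% of all genes (2.48% lower and 1.21% higher).

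Of the 10 members 7 were lower and 3 higher by group mean, and the median difference was -0.28, beside -0.01 over all genes tested, of which 51.6% were lower. The groups did not overlap for 2 members, Kdr and Angpt2, both lower in DeltaKlf6, beside 5.91% of all genes lower without overlap and 9.32% in either direction. Below their wildtype mean in all 3 DeltaKlf6 libraries were 5 members, Kdr, Tek, Vegfa, Angpt2 and Stab2, beside 17.7% of all genes. With the libraries taken singly, the median of the 10 members relative to the wildtype mean was -0.26, -0.20 and -0.43 in DeltaKlf6 1, 2 and 3. In the wildtype arrays it spanned -0.04 to 0.04. Each wildtype array is part of the wildtype mean, so these medians are pulled towards it. Here and in the lists below, the wildtype span is therefore no measure of chance differences. In whole liver RNA, a difference in the number of endothelial cells and a difference in RNA per endothelial cell cannot be told apart.

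**Figure D1:**
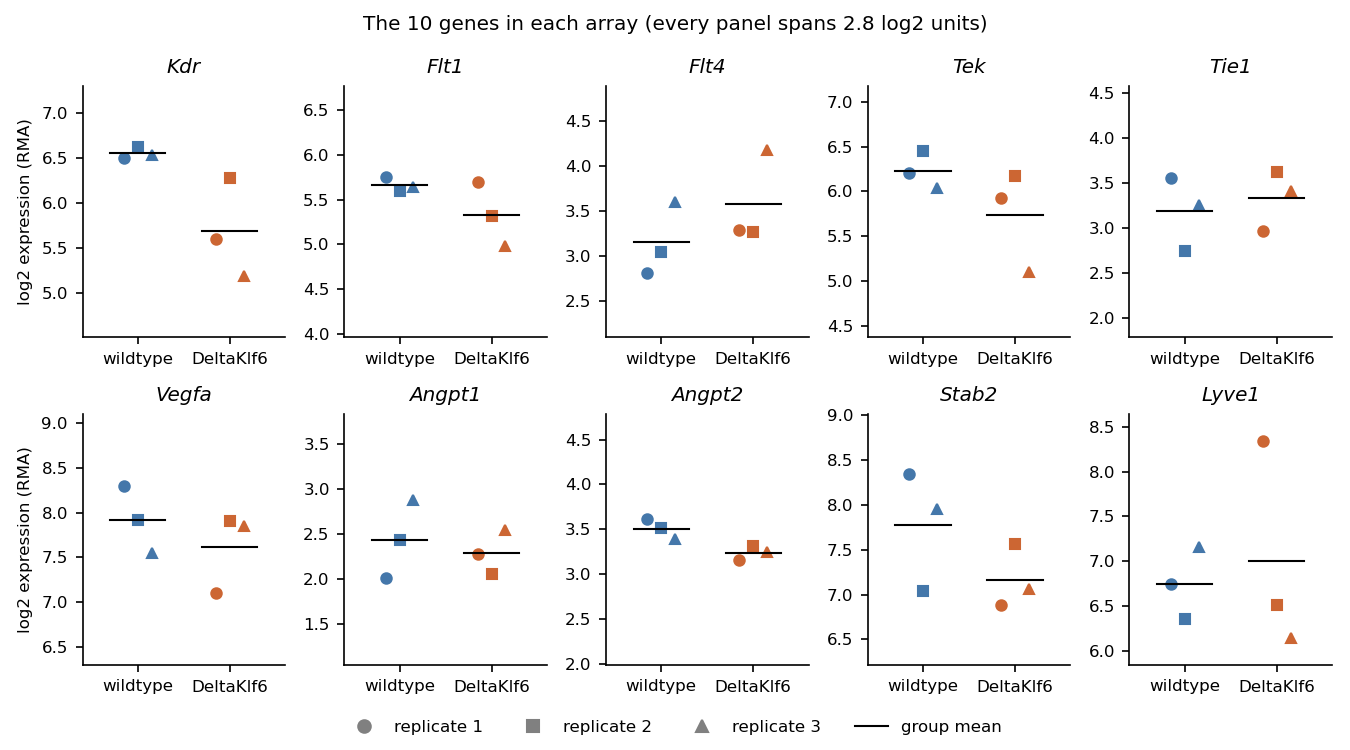
Log2 expression (vertical axis) of each of the 10 genes in the 3 wildtype (blue) and 3 DeltaKlf6 (orange) arrays, with marker shape for the replicate number and a line for the group mean; every panel spans the same number of log2 units. All DeltaKlf6 arrays lie below all wildtype arrays for Kdr and Angpt2, and Lyve1 of DeltaKlf6 1 lies at 8.34, above the other 5 arrays.

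The arrays themselves differed in ways that bear on these values. The 3 probe sets of Klf6 were above every wildtype array in the library labelled DeltaKlf6 1, and their distances from the mean of wildtype were 2.12, 1.82 and 2.13. The same distances were -0.30, 0.05 and -0.87 for DeltaKlf6 2, and for DeltaKlf6 3 -1.75, -0.32 and -0.86. By group the differences were 0.02, 0.52 and 0.13 (SE 0.85, 0.53 and 0.75), so no Klf6 probe set was lower in DeltaKlf6 by group mean. Directions below are therefore between libraries as labelled. The position of these probe sets in the gene is not given here. One that lies outside the deleted stretch says nothing of the deletion. The upper quartile of all values was 5.08 in DeltaKlf6 3 and 5.50 to 5.63 in the other 5 arrays. The excess of 3' over 5' signal of the Gapdh control probe sets spanned 4.06 to 4.43 in wildtype and was 3.47, 3.45 and 4.83 in the DeltaKlf6 arrays. The same excess for actin spanned 4.86 to 5.39 in wildtype and was 4.22, 3.998 and 5.05 in the DeltaKlf6 arrays, so that DeltaKlf6 3 lay inside the wildtype range on actin and above it on Gapdh. The part of RNA quality in the results was not tested. The arrays carry no detection call. Flt4, Tie1, Angpt1 and Angpt2 had means below 4.38, the median of the gene means, and close to or under the array medians of 3.30 to 3.45, and their differences were not separated from background. Nothing in the labels gives batches.

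Promoter sequence is shown for the receptor gene with the largest difference (Kdr), for the member whose profile over the arrays was closest to it (Tek), and for the ligand gene known from hepatocytes (Vegfa), the cell type that the deletion is labelled for. Each is the 250 bases before a RefSeq transcript start on GRCm38.p6, 5′ to 3′, using the start furthest upstream in the table. For Kdr and Tek the annotated gene span begins further upstream than this start. Krüppel-like factors are known to bind GC boxes and CACCC boxes, and capitals mark every match to GGGCGG or CACCC on either strand. None of these marked matches share a base in the 3 sequences.
Kdr chr5:75978456-75978705 (minus strand): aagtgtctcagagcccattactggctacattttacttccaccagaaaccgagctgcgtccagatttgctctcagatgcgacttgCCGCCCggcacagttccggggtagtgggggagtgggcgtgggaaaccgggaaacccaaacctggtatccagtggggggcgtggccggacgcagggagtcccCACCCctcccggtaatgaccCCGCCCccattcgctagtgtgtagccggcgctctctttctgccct
Tek chr4:94739039-94739288 (plus strand): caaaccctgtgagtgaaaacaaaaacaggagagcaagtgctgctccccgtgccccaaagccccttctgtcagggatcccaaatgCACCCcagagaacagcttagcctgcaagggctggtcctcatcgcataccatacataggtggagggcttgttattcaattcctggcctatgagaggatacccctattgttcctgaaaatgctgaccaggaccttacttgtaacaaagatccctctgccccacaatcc
Vegfa chr17:46032378-46032627 (minus strand): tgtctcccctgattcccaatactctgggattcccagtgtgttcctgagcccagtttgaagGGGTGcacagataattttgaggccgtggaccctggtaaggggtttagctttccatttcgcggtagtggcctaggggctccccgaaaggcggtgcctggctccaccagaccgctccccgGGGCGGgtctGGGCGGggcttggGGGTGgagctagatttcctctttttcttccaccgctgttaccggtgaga

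The Kdr window held 2 matches to GGGCGG and 1 to CACCC. The Tek window held 0 and 1, and the Vegfa window 2 and 2. A start was listed for 7 of the 10 members: Kdr, Flt1, Flt4, Tek, Tie1, Vegfa and Stab2. A GGGCGG match lay in 4 of these 7 windows, beside 33% of 27025 promoters of the same length, and a CACCC match in 6 of 7, beside 51.3%. The core CNGGAA, bound by ETS factors that are known regulators of endothelial genes, was in all 7 windows, beside 54% of promoters. The same CNGGAA search on both strands gave 2 matches in Kdr, 2 in Tek and 1 in Vegfa. These are matches of letters, with no binding measured. The deletion is labelled for hepatocytes, while Kdr and Tek are described here as receptor genes of the endothelium. Whether Klf6 acts on any of these windows was not tested.

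Vegfa, the main ligand gene of the system, was read by 2 probe sets. On the brighter probe set the wildtype arrays were at 8.30, 7.91 and 7.55 and the DeltaKlf6 arrays at 7.11, 7.90 and 7.85. DeltaKlf6 1 was the lowest of the 6, and DeltaKlf6 2 and 3 lay inside the wildtype range. The group difference was -0.30 (SE 0.30, limma adjusted p = 0.992), and without DeltaKlf6 1 it was -0.04. The other probe set had its lowest value in DeltaKlf6 3, at 4.70, and a difference of -0.53 (SE 0.35). The 2 probe sets thus shared the sign of the difference but not the array that was lowest.

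The angiopoietin genes were both dim. Angpt1, the activating ligand, was at 2.004, 2.43 and 2.87 in wildtype and at 2.28, 2.05 and 2.54 in DeltaKlf6, with fully overlapping groups (difference -0.15, SE 0.28). Angpt2, the context-dependent antagonist, was at 3.61, 3.52 and 3.39 in wildtype and at 3.16, 3.32 and 3.24 in DeltaKlf6. The 3 DeltaKlf6 arrays were all lower, but the gap between the groups was only 0.07 (difference -0.27, SE 0.20, limma adjusted p = 0.992). The other Angpt2 probe set overlapped between groups and differed by -0.03 (SE 0.27).

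Because both ligands act on TIE2, the within-array difference between their log2 values was compared between the groups. Its group means differed by -0.12, DeltaKlf6 minus wildtype (exact two-sided permutation test over the 20 ways to divide the arrays, p = 0.8, n = 3 each). An exact test of 3 against 3 arrays cannot go below p = 0.1, and Angpt1 lay under the array medians throughout, so the value shows neither a change nor its absence. Its sign turned without wildtype 1 (0.15) and without DeltaKlf6 3 (0.01).

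Among the VEGF receptors, Kdr was at 6.50, 6.63 and 6.54 in the wildtype arrays and at 5.60, 6.28 and 5.18 in DeltaKlf6 1, 2 and 3. The wildtype arrays were tightly grouped, and the DeltaKlf6 arrays ranged from just under them, with a gap of 0.22 for DeltaKlf6 2, to well under them. The difference was -0.87 (SE 0.30, 95% interval -1.55 to -0.19), a 1.83-fold lower group mean, with a limma unadjusted p of 0.0190 and an adjusted p of 0.992. The interval and p-values assume the same variance in both groups, while the SD of Kdr was 0.07 in wildtype and 0.55 in DeltaKlf6. By its difference Kdr lay at percentile 1.37 of all genes. With a single array left out, the difference ranged from -1.16 without DeltaKlf6 2 to -0.62 without DeltaKlf6 3 (limma adjusted p 0.529 to 0.9999). Without DeltaKlf6 1, the library with high Klf6, it was -0.83. Kdr has 1 probe set, so no other probe set checks it.

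Flt1 depended on the probe set. On the brightest of its 3 probe sets wildtype was at 5.75, 5.59 and 5.64 and DeltaKlf6 at 5.69, 5.32 and 4.98, a difference of -0.33 (SE 0.24). DeltaKlf6 1 lay inside the wildtype range there, and without it the difference was -0.51. On the other 2 probe sets DeltaKlf6 1 was instead the highest array, at 5.29 against 4.40 to 4.60 in wildtype and at 3.77 against 2.25 to 2.97. Their group differences were 0.01 (SE 0.36) and 0.23 (SE 0.40). Flt1 is known to give a full-length and a shorter soluble transcript, and the sources used here do not say which of them each probe set reads.

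Flt4, which encodes the VEGF-C receptor VEGFR3, was at 2.81, 3.04 and 3.60 in wildtype and at 3.29, 3.26 and 4.18 in DeltaKlf6. The highest value was in DeltaKlf6 3, the groups overlapped, and the difference was 0.43 (SE 0.33). Without DeltaKlf6 3 it was 0.13. This gene is one of the dim members.

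Of the TIE receptors, Tek was at 6.20, 6.45 and 6.03 in wildtype and at 5.92, 6.17 and 5.10 in DeltaKlf6. DeltaKlf6 2 lay within the wildtype range, DeltaKlf6 1 just under it and DeltaKlf6 3 far under it. The difference of -0.49 (SE 0.31, 95% interval -1.21 to 0.22) came to -0.18 without DeltaKlf6 3. Tie1 was at 3.56, 2.74 and 3.26 in wildtype and at 2.96, 3.62 and 3.41 in DeltaKlf6, with overlapping groups and a difference of 0.14 (SE 0.29). Tie1 turned to -0.078 without wildtype 2.

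Tek was the member nearest to Kdr in its profile over the 6 arrays, with a root mean square difference of 0.25 between the gene-centred log2 values. Both were lowest in DeltaKlf6 3 and nearest to wildtype in DeltaKlf6 2. Among the DeltaKlf6 arrays, DeltaKlf6 3 was the lowest for 6560 of all 17097 genes. Over all other genes the profiles closest to Kdr were those of Cenpv (0.06), Pwwp2a (0.08) and Nectin3 (0.08), on the same measure over 6 arrays. These 3 genes had group differences of -0.80, -0.77 and -0.83, and none passed the test (limma adjusted p = 0.992 each). They were picked for closeness to Kdr over these same arrays. Group differences near that of Kdr were thus fixed by the choice and are no separate result.

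**Figure D2:**
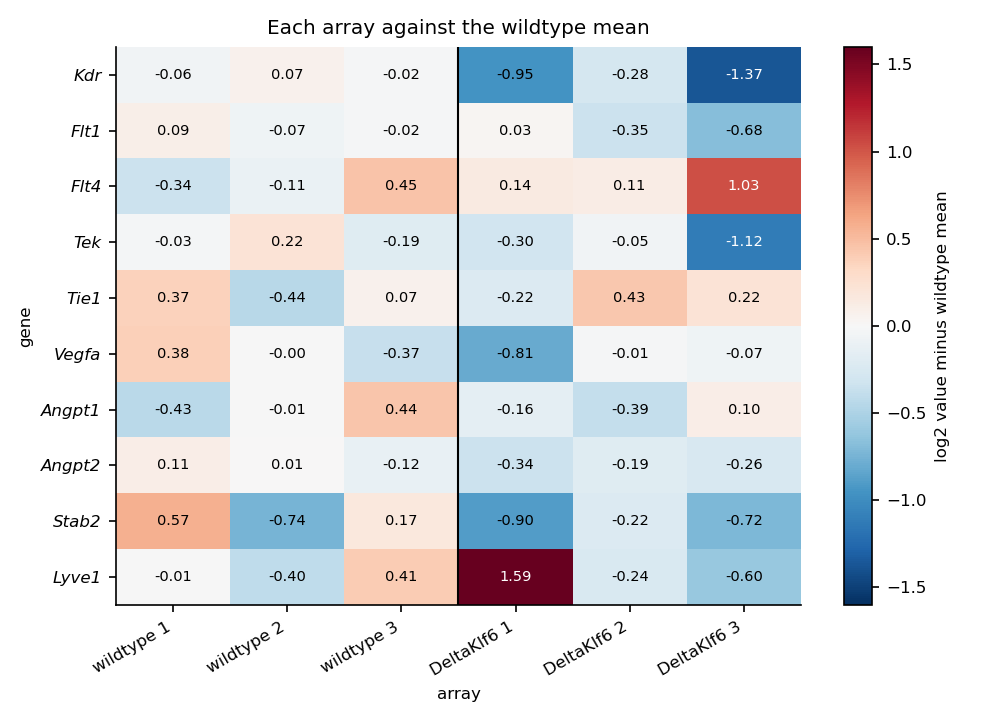
Log2 value of each gene (rows) in each of the 6 arrays (columns) minus the mean of the 3 wildtype arrays, in colour from blue (lower) to red (higher) with the value printed. Kdr is below wildtype in all 3 DeltaKlf6 columns (-0.95, -0.28 and -1.37), while Lyve1 is at 1.59 in DeltaKlf6 1 and at -0.24 and -0.60 in the other DeltaKlf6 columns.

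Neither of the endocytic receptor genes passed the test. Stab2, which encodes the hyaluronan scavenger receptor stabilin-2, was at 8.35, 7.04 and 7.95 in wildtype and at 6.88, 7.56 and 7.06 in DeltaKlf6. DeltaKlf6 1 was the lowest array, while wildtype 2 lay below DeltaKlf6 2 and 3, so the groups overlapped. The difference was -0.61 (SE 0.36, 95% interval -1.45 to 0.23), and it ranged from -0.98 without wildtype 2 to -0.33 without wildtype 1.

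Lyve1, a hyaluronan receptor gene of sinusoidal and lymphatic endothelium that is also known from some macrophages, was at 6.74, 6.35 and 7.16 in wildtype and at 8.34, 6.51 and 6.15 in DeltaKlf6. DeltaKlf6 1 was the highest array and DeltaKlf6 3 the lowest. DeltaKlf6 2 and 3 lay below the wildtype mean for Lyve1 as for Stab2, and DeltaKlf6 1 lay above it for Lyve1 and below it for Stab2. The SD of Lyve1 was 1.18 in DeltaKlf6 against 0.41 in wildtype. The difference was 0.25 (SE 0.54), and it turned to -0.42 without DeltaKlf6 1. The other Lyve1 probe set had the same order among the DeltaKlf6 arrays, at 6.68, 5.28 and 4.25 against 5.14 to 5.67 in wildtype, and a difference of -0.08 (SE 0.55). In DeltaKlf6 1 the median of the Kupffer cell and macrophage markers was 0.08 relative to wildtype, and that of the lymphatic markers was -0.21. Their part in the Lyve1 value was not tested.

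**Figure D3:**
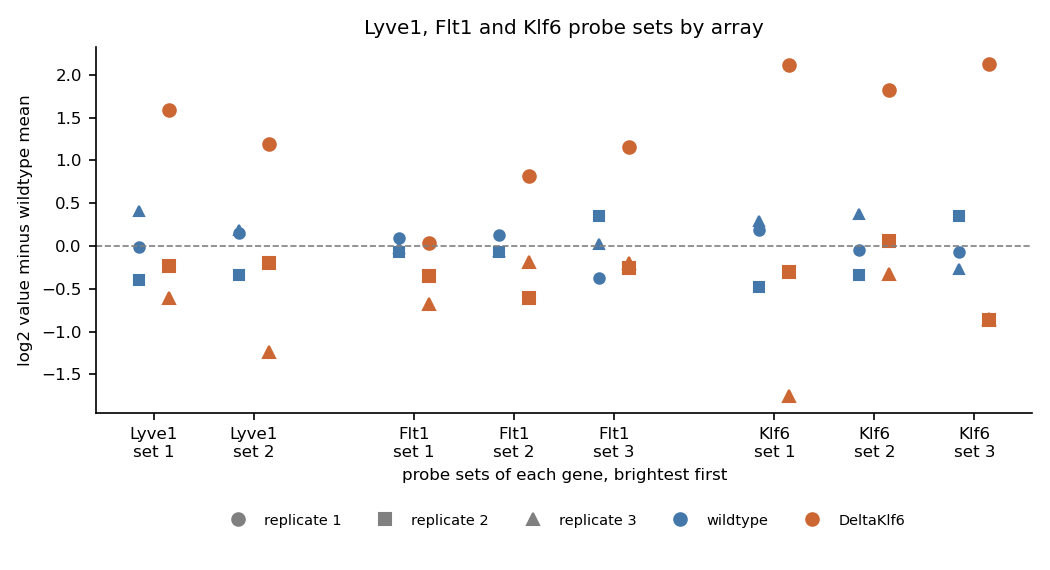
Log2 value minus wildtype mean (vertical axis) for every probe set of Lyve1, Flt1 and Klf6, brightest first within a gene, in wildtype (blue) and DeltaKlf6 (orange) arrays with marker shape for the replicate. DeltaKlf6 1 is the highest array on both Lyve1 probe sets (1.59 and 1.19), on the 2 dimmer Flt1 probe sets (0.82 and 1.15) and on the 3 Klf6 probe sets.

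Of the 4 members with more than 1 probe set, Vegfa and Angpt2 had the same sign on all of them, and Flt1 and Lyve1 did not. The SD was wider in DeltaKlf6 for 6 of the 10 members, beside 68.1% of all genes. Among the DeltaKlf6 arrays the lowest value of a member lay in DeltaKlf6 1 for 4 members, in DeltaKlf6 2 for 2 and in DeltaKlf6 3 for 4. Over all 17097 genes the lowest value lay in DeltaKlf6 1 for 5439, in DeltaKlf6 2 for 5098 and in DeltaKlf6 3 for 6560.

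**Figure D4:**
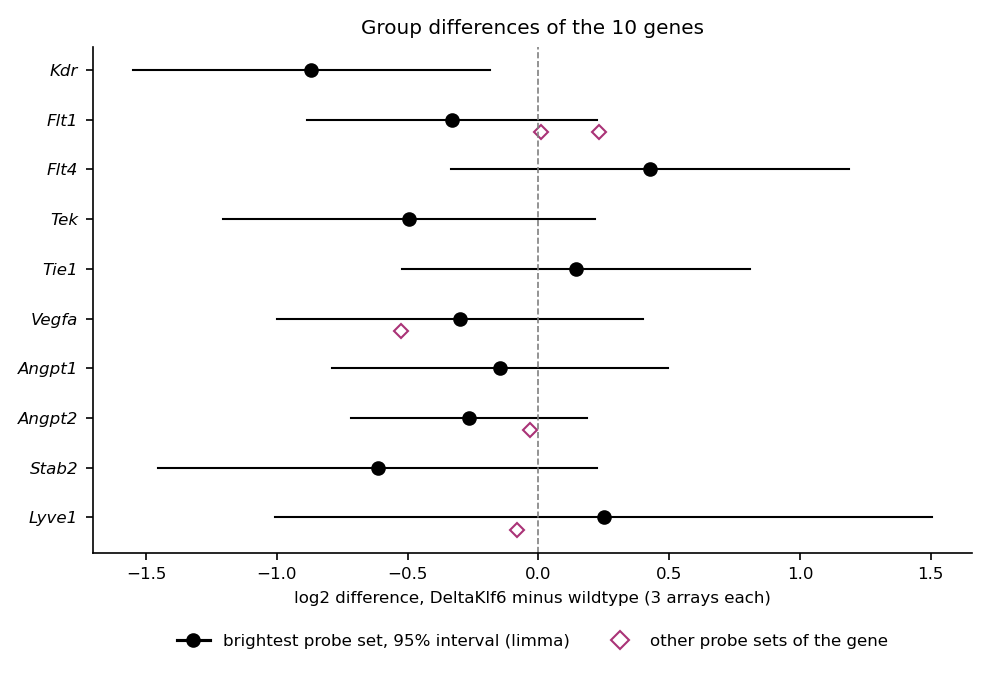
Log2 difference, DeltaKlf6 minus wildtype (horizontal axis, 3 arrays each), for the brightest probe set of each gene with its 95% interval from limma (filled points and lines) and for its other probe sets (open diamonds). The interval excludes 0 for Kdr, from -1.55 to -0.19, and includes it for the other 9 genes before adjustment for the number of genes tested. Intervals assume the same variance in both groups.

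Other genes of the pathway were read from a list of 19, all measured. The counts of this and the following lists stand beside 51.6% of all genes lower, 48.4% higher and 3.69% at an unadjusted p under 0.05. The groups did not overlap for 9.32% of all genes, and 5.91% were lower without overlap. By group mean 12 were lower and 7 higher (median -0.05), 0 passed the adjusted test in limma and 1 had an unadjusted p under 0.05. That gene was Nos3, the endothelial nitric oxide synthase gene, at 5.10, 4.64 and 5.31 in wildtype and 6.72, 5.46 and 5.94 in DeltaKlf6. It was higher in every DeltaKlf6 array than in any wildtype array (difference 1.03, SE 0.35, limma adjusted p = 0.992). Groups were higher without overlap for 3.41% of all genes. Nrp1, a co-receptor for VEGF-A that pairs with VEGFR2, was at 8.34, 8.92 and 8.31 in wildtype and 8.08, 8.45 and 7.35 in DeltaKlf6 (-0.56, SE 0.33). Like Kdr and Tek it was lowest in DeltaKlf6 3 and highest, among the DeltaKlf6 arrays, in DeltaKlf6 2. DeltaKlf6 3 was the lowest of the DeltaKlf6 arrays for 6560 of all 17097 genes. The ligand genes Vegfb (-0.47, SE 0.30) and Angpt4 (0.48, SE 0.27) did not pass either.

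The other markers of the sinusoidal endothelium differed little by group mean. Of 13 measured, 9 were lower and 4 higher by group mean, with a median of -0.05, 0 without overlap and 0 at an unadjusted p under 0.05. Differences ranged from -0.43 for Gpr182, an atypical chemokine receptor gene, to 0.13. Ehd3, an endocytic trafficking gene, differed by -0.28 (SE 0.21), Gata4, the transcription factor of sinusoidal identity, by -0.15 (SE 0.34) and Dnase1l3 by 0.10 (SE 0.24). Clec4g, a lectin gene, and Stab1, the paralogue of Stab2, are named after their values were seen. Clec4g was at 9.31, 9.80 and 9.62 in wildtype and 9.06, 9.64 and 9.87 in DeltaKlf6 (-0.06, 95% interval -0.69 to 0.58). Stab1 differed by -0.08 (95% interval -0.67 to 0.51). The intervals of Clec4g, Stab1 and Kdr overlap, and whether Kdr differed by more than these markers was not tested.

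Of 18 pan-endothelial markers 10 were lower and 8 higher (median -0.02), and 3 had an unadjusted p under 0.05, each higher in DeltaKlf6 by group mean. Emcn, a sialomucin gene, was at 2.69, 3.09 and 2.86 in wildtype and 3.37, 3.56 and 3.42 in DeltaKlf6 (0.57, SE 0.21), without overlap, and its mean lay below the median of the gene means. Robo4, an endothelial guidance receptor gene, was at 3.88, 3.03 and 3.32 in wildtype and 4.94, 4.26 and 3.81 in DeltaKlf6 (0.93, SE 0.35), so DeltaKlf6 3 lay below wildtype 1. Fli1, an ETS factor gene, was at 3.15, 3.07 and 2.74 in wildtype and 4.62, 4.35 and 2.96 in DeltaKlf6 (0.99, SE 0.42), so DeltaKlf6 3 lay within the wildtype range. Sox18, an endothelial transcription factor, was lower without overlap (-0.51, SE 0.24). The means of Robo4, Fli1 and Sox18 also lay below the median of the gene means. The median of this list was 0.24, 0.16 and -0.29 in DeltaKlf6 1, 2 and 3, so the libraries differed in sign, and it spanned -0.01 to 0.06 in wildtype.

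Large-vessel endothelial markers had 5 of 7 lower (median -0.24). Cd34, a sialomucin gene, was lower without overlap, at 3.18, 3.28 and 3.28 in wildtype and 2.89, 2.38 and 2.39 in DeltaKlf6 (-0.69, SE 0.22, limma adjusted p = 0.992), all under the array medians. Vcam1, an adhesion molecule gene induced by inflammation, was at 5.93, 4.24 and 5.66 in DeltaKlf6 and at 4.25 to 4.37 in wildtype (0.97, SE 0.42). Rspo3 (-0.29) and Efnb2 (-0.31) overlapped.

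Lymphatic markers had 4 of 4 measured lower (median -0.34). Prox1, a transcription factor gene of lymphatic endothelium that hepatocytes also express, was at 6.58, 6.55 and 7.27 in wildtype and 5.51, 6.24 and 4.07 in DeltaKlf6 (-1.53, SE 0.52, limma adjusted p = 0.992). The groups did not overlap, and DeltaKlf6 3 was the lowest array. Mmrn1 (-0.39), Pdpn (-0.28) and Reln (-0.08), the last of which stellate cells also express, overlapped. Over these endothelial and pathway lists together, 40 of 61 measured genes were lower and 21 higher, the median was -0.06, and 0 passed the adjusted test while 7 had an unadjusted p under 0.05. As shares of the 61 these are 65.6% lower and 11.5% at an unadjusted p under 0.05. Of the genes under that threshold, Nos3, Emcn, Robo4, Fli1 and Vcam1 were higher by group mean, and Cd34 and Prox1 were lower. Over all genes 2.48% were lower and 1.21% higher at the same threshold. Without overlap between the groups, 3 of the 61 were lower and 2 higher, beside 5.91% and 3.41% of all genes.

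Markers of the other liver cell types moved between libraries too. As above, the wildtype values are relative to a mean that includes them. Over all genes the medians were -0.02, -0.01 and -0.06 in DeltaKlf6 1, 2 and 3. The 10 hepatocyte markers had a median of 0.23, 0.29 and -0.16 in the 3 DeltaKlf6 arrays, taken in order, and 0.00 in each wildtype array. By group mean 5 were lower and 5 higher, beside 51.6% and 48.4% of all genes. The 10 Kupffer cell and macrophage markers were at 0.08, 0.82 and -0.12, against -0.13 to 0.16 in wildtype. By group mean 7 were higher, among them C1qb (0.72, SE 0.35) and Marco (0.44, SE 0.31). The other 3 were lower, among them Adgre1 (-0.23, SE 0.45) and Csf1r (-0.19, SE 0.28). The 10 stellate cell markers were at 0.18, 0.47 and -0.29, against -0.15 to 0.10. Of these 6 were higher, among them Des (0.41, SE 0.25), and 4 lower, among them Rgs5 (-0.28, SE 0.29). The 5 cholangiocyte markers measured were at 0.38, -0.06 and -0.05, against -0.19 to 0.05. Of these 4 were higher, among them Sox9 (0.48, SE 0.30), and 1 was lower, Krt7 (-0.11, SE 0.41). The 6 neutrophil markers were at -0.22, -0.35 and 0.01, against -0.20 to 0.20, with 5 lower and 1 higher by group mean. The 7 lymphocyte markers were at -0.18, -0.16 and -0.19, against -0.08 to 0.11. Of these 4 were lower, among them Cd3g (-0.46, SE 0.22), and 3 higher, among them Cd3e (0.05, SE 0.22). The 3 erythroid markers were at 0.11, 0.03 and 0.17, against -0.041 to -0.0042. All 3 were higher by group mean, with Hba-a1 at 0.53 (SE 0.24). The libraries with the smallest and largest departures of Kdr were DeltaKlf6 2 and 3. Among the DeltaKlf6 arrays they had the highest and lowest medians of the hepatocyte, Kupffer cell and stellate cell lists, and narrowly of the lymphocyte list. Other lists had another order. The neutrophil and erythroid medians were lowest in DeltaKlf6 2 and highest in DeltaKlf6 3, and the cholangiocyte median was highest in DeltaKlf6 1. The part of cell composition in the Kdr and Tek values was not tested.

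**Figure D5:**
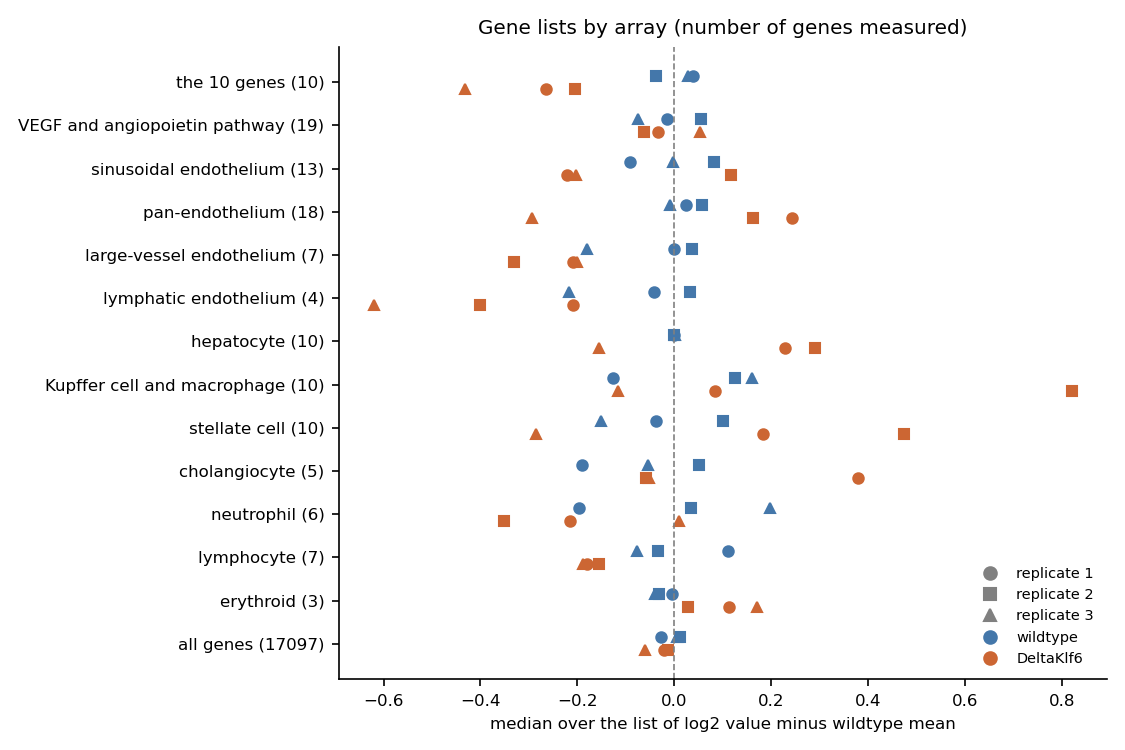
Median over each gene list of the log2 value minus the wildtype mean (horizontal axis) in the wildtype (blue) and DeltaKlf6 (orange) arrays, with marker shape for the replicate and the number of genes measured in brackets. The 10 genes lie at -0.26, -0.20 and -0.43 in the DeltaKlf6 arrays, and the sinusoidal endothelium list at -0.22, 0.12 and -0.20.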

How the data were processed

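RNA from 6 livers, 1 array each, was isolated with TRIzol and RNeasy and labelled by 3' in vitro transcription, per the labels' protocols. The authors deposited log2 expression values. Per the submitters' processing notes they come from RMA (background correction, quantile normalization, median-polish summary), with Affymetrix Expression Console 1.2.1. The table does not name its log base, which was inferred from the highest value, 13.9. The number of arrays limits the precision, since each group has 3 animals.

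Of 45141 probe sets, 28898 had a single symbol in the platform annotation, 551 several and 15692 none or were controls. A gene was read from its brightest single-symbol probe set by mean over the 6 arrays, and 15 probe sets belonged to the 10 genes. RefSeq changed 0 symbols. The test of DeltaKlf6 against wildtype used limma 3.58.1 (R 4.3.3; lmFit, eBayes, genotype as factor, two-sided, Benjamini-Hochberg over 17097 genes, threshold 0.05), and all probe sets were fitted separately as a check. The calculation was tested on simulated data. The 10 genes and 12 gene lists were chosen with earlier results of these data known. Named list genes are up to 4 per list with the smallest unadjusted p, and likeness to Kdr names 3 genes. A list is described by counts and its median, beside those of all genes. Alternatives are given in the closing section. Promoters are RefSeq's on GRCm38.p6, and the authors' genome build is not given in the sources used here.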

Additional observations from a re-analysis of the deposited data

How the results depend on the processing

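Under 15 alternatives (other probe set choices, dim genes left out, 2 renormalizations, 3 variance or weight settings, the replicate block and each array left out) limma called 0 genes and 0 members at an adjusted p of 0.05 each time. The lowest adjusted p of any member was 0.529. The sign of Kdr, Flt1, Tek, Vegfa, Angpt2 and Stab2 (lower) and of Flt4 (higher) was kept in every alternative that tested them, and 6 to 8 members were lower in the fits on 10 members. Leaving out 1 array gave ranges that cross 0 for Tie1 (-0.078 to 0.33), Angpt1 (-0.36 to 0.072), Lyve1 (-0.42 to 0.68) and the Angpt2 minus Angpt1 change (-0.40 to 0.15). The members without overlap numbered 2 to 5 with 1 array left out (5 without wildtype 3), when the share of all genes without overlap was 16.4% to 25.3%, and the median of the members was -0.33 to -0.22. When a gene's probe sets were averaged, 1 member had no overlap and the median was -0.15. With dim genes left out, Flt4, Tie1, Angpt1 and Angpt2 dropped out and 6 members remained in the fit. Of these 6, 1 had no overlap and the median was -0.41, with the difference of each remaining member unchanged.

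The replicate block left the members' median at -0.28 and called 0 genes, with 703 at an unadjusted p under 0.05 against 631 without it. Deviations of same-numbered arrays correlated across genes at -0.0049, 0.26 and 0.084, and those of differently numbered arrays at -0.17 to 0.086. The deviations of 3 arrays from their own mean depend on each other, so these values cannot settle whether the numbers pair the animals. The main test did not take them to do so. Nothing besides the labels says how the 3 animals of a group were kept or processed, and p-values measure the spread between these arrays only.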
